A study of Homo sapiens with 8 samples.

Results

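The transporters and kinases that set cell chloride and cell volume were examined in A549 cells treated with indisulam and SPHINX31. The set held 7 genes of the 60624 in the files. SLC12A2, SLC12A4 and SLC12A7 encode chloride cotransporters, WNK1, STK39 and OXSR1 encode kinases that control them, and LRRC8A encodes a subunit of the volume-regulated anion channel. They were selected on the fall of SLC12A2 in cells treated with both compounds, so SLC12A2 in the combination is described here without a test. The other 6 were listed as its relatives and regulators, and all 7 passed the filter on low counts, which 18661 genes did.

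A549 is an established cell line from a human lung adenocarcinoma. Cells were left untreated or received 0.5 µM indisulam, 5 µM SPHINX31 or both for 24 h, by the study's methods, whereas the treatment text in the labels gives 2 µM indisulam and 18 h. Indisulam is a molecular glue that brings the splicing factor RBM39 to the DCAF15 ubiquitin ligase for degradation, and SPHINX31 inhibits SRPK1, a kinase of splicing factors. The untreated cells carried no added compound by the labels, and no solvent is named for them. Each of the 4 groups (untreated, indisulam, SPHINX31 and combination) had 2 libraries described as technical duplicates, so the p-values measure only the spread between these libraries and not variation between independent treatments. All results come from 1 cell line at 1 time point.

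The 8 libraries held between 51727369 and 63186989 counts on genes, which were 83.0% to 86.0% of the recorded reads, and no 2 libraries of a group were copies, since a chi-square test of their counts gave 6.6 to 10.7 per degree of freedom. Levels are given as CPM, the counts of a gene relative to the library size after TMM scaling. With 2 libraries per group, 2 groups can lie apart where a gene is unchanged. The share of all genes whose groups lie apart was not counted. Statements that groups did or did not overlap are therefore descriptions only. The epithelial keratins KRT8 and KRT18 stood between 3376 and 4101 CPM in every library, KRT19 between 67.1 and 87.2, CDH1 between 70.5 and 106, and EPCAM between 25.4 and 33.6. In the combination against untreated cells, edgeR called CDH1, KRT18 and KRT8 lower (log2 fold change -0.53, -0.22 and -0.13) and KRT19 and EPCAM higher (0.30 and 0.23), and the part of these shifts in the results was not tested. Of 7 markers of other cell types, the fibroblast gene COL1A1 reached 3.23 to 4.65 CPM and the endothelial gene PECAM1 reached 1.45 to 2.36 CPM, and the other 5, PTPRC and CD3E of leukocytes, CDH5 of endothelium and COL1A2 and DCN of fibroblasts, stayed at or below 0.138 CPM. CDKN2A, which is deleted in A549, had 2.65 to 3.63 CPM, and the source of these counts was not tested.

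SLC12A2 encodes NKCC1, which carries sodium, potassium and chloride together into the cell. SLC12A4 and SLC12A7 encode KCC1 and KCC4, which carry potassium and chloride out. When cells shrink or chloride falls, WNK kinases activate STK39 (SPAK) and OXSR1 (OSR1), and these phosphorylate the cotransporters, which switches NKCC1 on and the KCCs off. When cells swell, channels built on LRRC8A let chloride and organic osmolytes leave. In lung epithelium NKCC1 is known for loading chloride for secretion.

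SLC12A2 (ENSG00000064651, chromosome 5 of GRCh38, 128083766 to 128189677, plus strand, 27 exons in the canonical transcript) was lower in each treatment than in untreated cells, and lowest in the combination. It stood at 437 and 443 CPM in the 2 untreated libraries, 273 and 266 with indisulam, 354 and 378 with SPHINX31, and 168 and 170 with the combination. The 4 groups did not overlap, and their order was untreated, SPHINX31, indisulam, combination. The counts behind these values ran from 9630 to 27044 per library. Since the RNA was made from bulk cultures, fewer cells of a type and less RNA per cell cannot be told apart.

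With indisulam alone the log2 fold change of SLC12A2 was -0.71 (SE 0.0484, 95% interval -0.81 to -0.60, adjusted p = 1.39e-07 in the quasi-likelihood test of edgeR, adjusted by Benjamini-Hochberg over all tested genes). With SPHINX31 alone it was -0.27 (SE 0.0481, 95% interval -0.37 to -0.16, adjusted p = 0.00431 by the same test). Without the untreated replicate 2 the SPHINX31 value was -0.257 and no longer passed, and without the untreated replicate 1 it was -0.274. In both fits the SE was 0.0665, so the estimate moved little while its error grew. The tests of both single treatments share libraries with the contrasts that selected the gene.

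For the combination the values are descriptions, since they chose the gene. The log2 fold change was -1.38 against untreated cells (95% interval -1.48 to -1.27), -0.67 against indisulam alone (-0.78 to -0.57) and -1.11 against SPHINX31 alone (-1.22 to -1.01). The single treatments summed to -0.97 on the log2 scale, and the combination lay 0.41 below that sum, an interaction of -0.41 (SE 0.0684). Over all 18661 tested genes, 0 passed for the interaction in edgeR and 31 in DESeq2. With any 1 library left out, the interaction of SLC12A2 stayed between -0.44 and -0.35. This range and the SE are no test of it, since the combination values chose the gene.

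**Figure D1:**
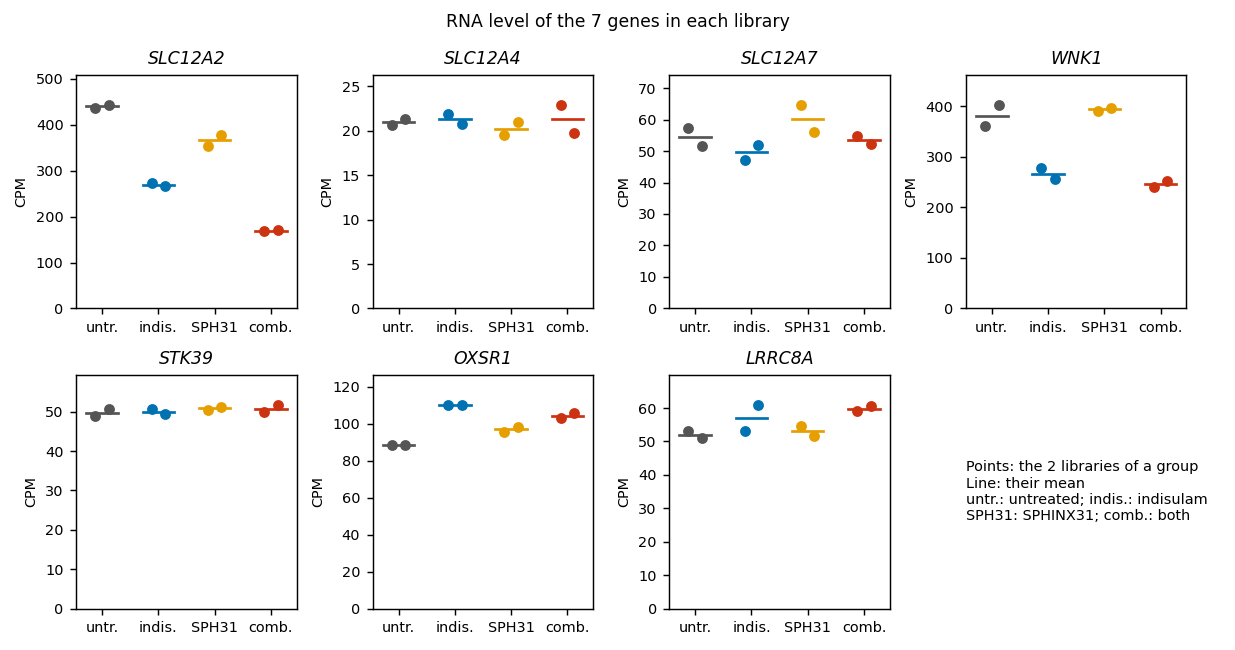
RNA level (CPM, y axes from 0) of the 7 genes in each library, with points for the 2 libraries of a group and a line for their mean. SLC12A2 descends from about 440 CPM in untreated to 169 CPM in the combination, WNK1 is low in both groups with indisulam, and STK39 lies between 48.9 and 51.6 CPM in all 8 libraries.

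SLC12A4 and SLC12A7, which carry potassium and chloride out of the cell, did not follow SLC12A2. SLC12A4 (KCC1, ENSG00000124067, chromosome 16, 67943474 to 67969601, minus strand) had 20.6 and 21.3 CPM in untreated cells, 21.9 and 20.8 with indisulam, 19.5 and 21.0 with SPHINX31, and 22.9 and 19.8 with the combination. All 4 groups overlapped, and the 95% intervals of its log2 fold changes lay within -0.22 and 0.20 in the 3 comparisons with untreated cells. GENCODE shows a same-strand overlap of 4% of its exon bases with LCAT, so reads there could be counted for either gene or for none.

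SLC12A7 (KCC4, ENSG00000113504, chromosome 5, 1050384 to 1112063, minus strand) had 57.2 and 51.7 CPM in untreated cells, 47.2 and 51.9 with indisulam, 64.6 and 55.9 with SPHINX31, and 54.9 and 52.2 with the combination. The libraries of each treatment overlapped the untreated ones, while both combination libraries lay below both SPHINX31 libraries. Its log2 fold change between these 2 groups was -0.17 (95% interval -0.34 to -0.01, adjusted p = 0.0788 in edgeR's test), and passed without the SPHINX31 replicate 2 (adjusted p = 0.0188, same test) and without the filter on low counts (adjusted p = 0.0344). The remaining log2 fold changes of SLC12A7 did not pass in any pairwise comparison.

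These levels can be compared between genes only per length, as CPM per kb of the canonical GENCODE transcript. On that scale SLC12A2 made up 80.8% and 81.8% of the sum of the 3 cotransporter genes in the 2 untreated libraries, 74.6% and 73.1% with indisulam, 75.9% and 78.6% with SPHINX31, and 61.7% and 63.8% with the combination. SLC12A4 and SLC12A7 together had group means of 14.7 CPM per kb in untreated cells, 13.9 with indisulam, 15.7 with SPHINX31 and 14.6 with the combination. The ratio of SLC12A2 to their sum was 4.2 and 4.51 in untreated cells, 2.93 and 2.72 with indisulam, 3.15 and 3.67 with SPHINX31, and 1.61 and 1.76 with the combination. The groups did not overlap in this ratio, which carries the SLC12A2 values that chose the genes and has no test.

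**Figure D2:**
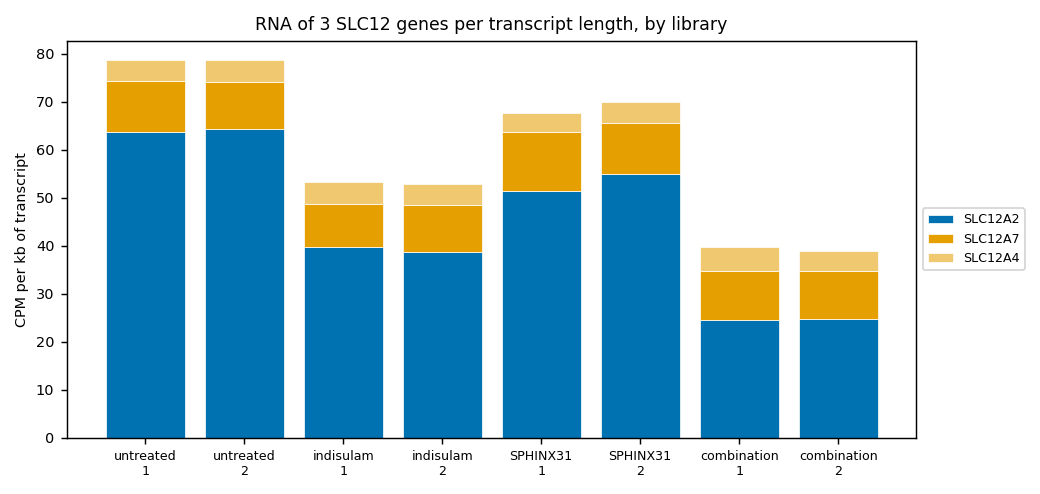
Stacked bars of the RNA of SLC12A2, SLC12A7 and SLC12A4 per transcript length (CPM per kb, y axis from 0) in each of the 8 libraries, with 1 colour per gene. The SLC12A2 part shrinks from 64.4 CPM per kb at most in untreated cells to 24.5 at least in the combination, while SLC12A4 and SLC12A7 together stay between 13.6 and 16.3.

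WNK1 (ENSG00000060237, chromosome 12, 752579 to 911452, plus strand), the kinase at the head of the cascade, was lower in both groups that received indisulam. It had 360 and 402 CPM in untreated cells, 277 and 255 with indisulam, 390 and 397 with SPHINX31, and 240 and 251 with the combination. The indisulam and combination libraries all lay below the untreated and SPHINX31 libraries, and the SPHINX31 values fell inside the untreated range. The log2 fold change was -0.52 with indisulam (SE 0.0598, adjusted p = 1.41e-05) and -0.63 with the combination (SE 0.0599, adjusted p = 1.59e-06), both in edgeR's test. With SPHINX31 it was 0.05 (95% interval -0.08 to 0.18, adjusted p = 0.674 in edgeR's test).

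Between the combination and indisulam alone the log2 fold change of WNK1 was -0.12 (95% interval -0.25 to 0.01, adjusted p = 0.276 in edgeR's test). Its interaction was -0.17 (SE 0.0844, adjusted p = 0.63 in the same test), where SLC12A2 had -0.41. Whether the interactions of the 2 genes differ was not tested, and that of SLC12A2 holds the combination values that chose it.

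SLC12A2 and WNK1 were the 2 genes of the set that fell with indisulam, and the 250 bases before their RefSeq transcription starts are printed to show the sequence just upstream of each gene (RefSeq, GRCh38.p14). The windows are chr5:128083516-128083765 and chr12:752329-752578, both on the plus strand and 5′ to 3′, and capitals mark GC boxes (GGGCGG on either strand), the short motif bound by Sp1-type factors.
SLC12A2: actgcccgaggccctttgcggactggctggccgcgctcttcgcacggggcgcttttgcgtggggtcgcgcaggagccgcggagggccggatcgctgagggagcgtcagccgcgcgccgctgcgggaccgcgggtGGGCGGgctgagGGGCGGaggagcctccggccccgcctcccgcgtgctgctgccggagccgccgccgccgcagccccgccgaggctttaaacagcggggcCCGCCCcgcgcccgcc
WNK1: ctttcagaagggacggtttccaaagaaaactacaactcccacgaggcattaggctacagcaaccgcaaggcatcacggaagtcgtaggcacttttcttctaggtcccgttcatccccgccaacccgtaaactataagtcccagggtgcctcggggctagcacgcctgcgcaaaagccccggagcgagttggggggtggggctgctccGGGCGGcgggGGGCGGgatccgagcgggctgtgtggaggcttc

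The SLC12A2 window had 3 GC boxes and 79.6% GC, and the WNK1 window had 2 GC boxes and 61.6% GC, against a median of 58.0% GC over all promoters. Of 35116 RefSeq promoters of this length, 42.6% held a GC box, 32% a CCAAT box (CCAAT), 10.7% a TATA box (TATAAA), 6.34% an E-box (CACGTG) and 1.65% a cAMP response element (TGACGTCA), each on either strand. Neither printed window held any of the last 4 motifs in these letters. The other windows of the set held from 0 to 8 GC boxes. Among these other windows, an E-box occurred once for SLC12A7 and a CCAAT box once in 1 window of SLC12A4. The cAMP response element was added to the search after the sequences had been seen. It occurred once in the window of OXSR1 and once in 1 window of LRRC8A, whose other window held 0. These matches describe letters and not binding.

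The 2 kinases below WNK1 had unlike levels across the groups. OXSR1 (ENSG00000172939, chromosome 3, 38165089 to 38255484, plus strand) had 88.4 and 88.7 CPM in untreated cells, 110 and 110 with indisulam, 95.8 and 98.2 with SPHINX31, and 103 and 106 with the combination. Every treated library lay above both untreated ones, with indisulam alone the highest. The log2 fold change was 0.31 with indisulam (SE 0.0476, adjusted p = 1.66e-04) and 0.24 with the combination (SE 0.0476, adjusted p = 9.74e-04), by edgeR's quasi-likelihood test.

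With SPHINX31 the log2 fold change of OXSR1 was 0.13 (95% interval 0.03 to 0.23, adjusted p = 0.108 in edgeR's test), and it passed when libraries were scaled by total counts (0.166, adjusted p = 0.0395). Its difference between the combination and SPHINX31 was 0.11 (adjusted p = 0.0778, and 0.0363 with total counts, same test). Its interaction was -0.20 (SE 0.0673, unadjusted p = 0.0099, adjusted p = 0.461 in edgeR's test).

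STK39 (ENSG00000198648, chromosome 2, 167954020 to 168247595, minus strand) had 48.9 and 50.6 CPM in untreated cells, 50.6 and 49.3 with indisulam, 50.4 and 51.2 with SPHINX31, and 49.8 and 51.6 with the combination. The groups overlapped in every comparison. The 95% intervals of the log2 fold changes against untreated cells ran from -0.11 to 0.15, so a change in STK39 as large as that of OXSR1 with indisulam lay outside them. Per transcript length the ratio of OXSR1 to STK39 was 1.31 and 1.27 in untreated cells, 1.57 and 1.61 with indisulam, 1.38 and 1.39 with SPHINX31, and 1.5 and 1.48 with the combination, and the 4 groups did not overlap.

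LRRC8A (ENSG00000136802, chromosome 9, 128882133 to 128918039, plus strand), the subunit that every volume-regulated anion channel needs, had 53.0 and 50.9 CPM in untreated cells, 53.2 and 60.8 with indisulam, 54.5 and 51.5 with SPHINX31, and 59.1 and 60.6 with the combination. The combination libraries lay above the untreated and SPHINX31 libraries, and the 2 indisulam libraries spread widely. The log2 fold change with the combination was 0.20 (SE 0.0654, adjusted p = 0.0191, edgeR's quasi-likelihood test) and was lost without the untreated replicate 2 (adjusted p = 0.124) or the combination replicate 2 (adjusted p = 0.0985). Against SPHINX31 alone it was 0.17 (SE 0.0655, adjusted p = 0.0401 in edgeR's test), which did not pass without either untreated library, the SPHINX31 replicate 2 or either combination library (adjusted p from 0.0552 to 0.157) or with the replicate number as a block (adjusted p = 0.0546). With indisulam alone it was 0.13 (adjusted p = 0.116), and 0.228 without the indisulam replicate 1 (adjusted p = 0.021), both by edgeR.

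**Figure D3:**
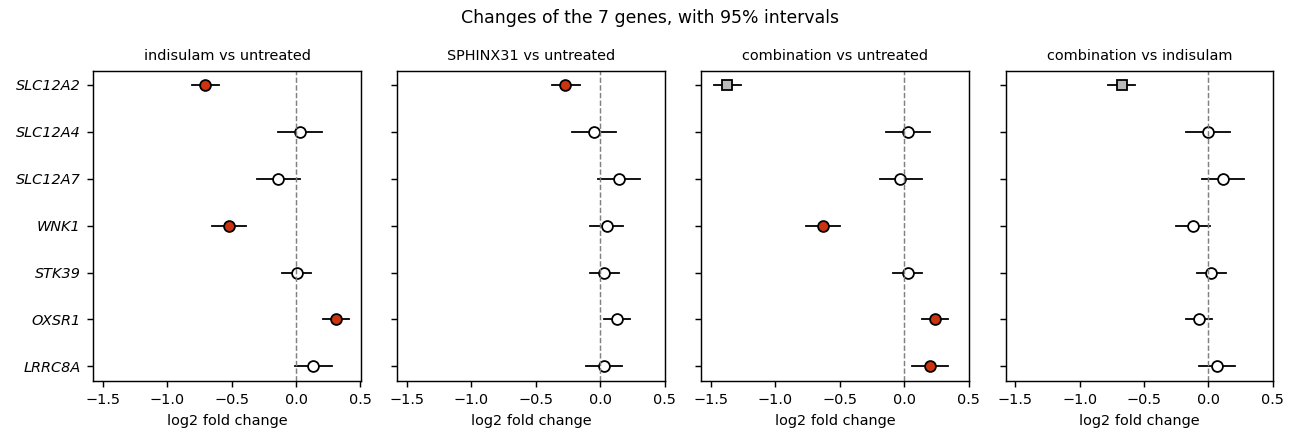
Log2 fold change (x axes) of each of the 7 genes in 4 comparisons, with bars for 95% intervals from edgeR, filled red circles for an adjusted p under 0.05, open circles for values that did not pass, and grey squares for SLC12A2 in the combination, which has no test. With indisulam against untreated cells, only SLC12A2 and WNK1 sit left of 0 with their whole interval, and OXSR1 sits right of 0.

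In counts, 3 of the 7 genes passed with indisulam (OXSR1 higher, SLC12A2 and WNK1 lower), where 43.7% of all tested genes passed, 20.1% higher and 23.5% lower, so that this share was near the background. With SPHINX31, 1 of 7 passed (SLC12A2, lower), against 8.61% of all genes, 4.94% higher and 3.67% lower. Without SLC12A2, which chose the set, 2 of the other 6 passed with indisulam and 0 with SPHINX31. The split over all genes with SPHINX31 depended on the scaling. It was 921 genes higher and 685 lower after TMM, and 1341 higher and 515 lower with total counts alone. In the combination, the 6 genes other than SLC12A2 gave 3 calls against untreated cells (OXSR1 and LRRC8A higher, WNK1 lower), where 50.0% of all genes passed, 23.8% higher and 26.3% lower. Against SPHINX31 alone they gave 2 calls (LRRC8A higher, WNK1 lower), where 49.9% of all genes passed, 23.4% higher and 26.5% lower.

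Against indisulam alone, 0 of these 6 passed in edgeR's test, also at an unadjusted p under 0.05, and 0 passed in DESeq2, where 7.50% of all genes passed in edgeR, 3.17% higher and 4.32% lower (592 and 807 genes, and 942 and 498 with total counts alone). For the interaction 0 of 6 passed in edgeR, with 1 (OXSR1) at an unadjusted p under 0.05, and 0 passed in DESeq2. Over all tested genes the interaction gave 0 calls (0%) in edgeR, with 1584 at an unadjusted p under 0.05, and 31 calls in DESeq2. The median log2 fold change of the 6 genes was 0.02 with indisulam, 0.04 with SPHINX31 and 0.03 with the combination, beside medians over all genes of -0.004, -0.006 and 0.001.

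The order of the 7 genes per transcript length changed little. SLC12A2 ranked first in each group, with means of 64 CPM per kb in untreated cells, 39.2 with indisulam, 53.2 with SPHINX31 and 24.6 with the combination. WNK1 (35.3 CPM per kb) lay above OXSR1 (19.6) in untreated cells, whereas the 2 overlapped with indisulam (24.7 and 24.3) and with the combination (22.7 and 23.1). STK39, LRRC8A, SLC12A7 and SLC12A4 followed in that order in every group, and LRRC8A and SLC12A7 overlapped with SPHINX31. Each length was that of 1 canonical transcript, and other lengths were not tried. In the combination SLC12A2 (24.6) lay close to OXSR1 (23.1), so its first rank there could depend on that choice.

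Around the 7 genes, 49 further genes of chloride transport, WNK signalling, anion channels, other ion transport and osmolytes were listed, of which 44 passed the filter. SLC12A1 and SLC12A3 (the kidney NKCC2 and NCC), WNK3, TTYH1 and SLC6A12 did not. With indisulam 19 of the 44 passed (43.2%, against 43.7% of all genes), 4 higher and 15 lower. Of all tested genes 20.1% were higher and 23.5% lower. The median log2 fold change was -0.14 for the 44 and -0.004 for all genes. Of these 19, 11 passed with every library left out in turn.

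Of the 3 other SLC12 genes tested, 1 fell and 0 rose with indisulam in edgeR's test (33.3%, against 43.7% of all genes). Of all tested genes 20.1% rose and 23.5% fell. SLC12A9, a family member whose transport is less well defined, had 20.3 and 21.1 CPM in untreated cells, 16.1 and 15.8 with indisulam, 20.5 and 18.2 with SPHINX31, and 14.8 and 11.8 with the combination. Both groups with indisulam lay below the untreated and SPHINX31 libraries, and the log2 fold changes were -0.38 with indisulam and -0.64 with the combination.

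In the WNK cascade and its regulators, 3 of 13 tested genes rose and 2 fell with indisulam (38.5%, against 43.7% of all genes). Over all tested genes the shares were 20.1% higher and 23.5% lower. KLHL3, the adaptor by which a cullin ligase removes WNK kinases, had 3.23 and 3.59 CPM in untreated cells, 1.27 and 1.00 with indisulam, 3.76 and 4.03 with SPHINX31, and 1.24 and 1.24 with the combination. Its log2 fold change was -1.58 with indisulam (SE 0.153, adjusted p = 3.11e-06, edgeR's quasi-likelihood test) and it was low in both groups with indisulam, as WNK1 was. NEDD4L, a ubiquitin ligase that acts on sodium transport, rose with a log2 fold change of 0.45. TSC22D1 fell (-0.25). CAB39 (MO25), the scaffold of STK39 and OXSR1, rose by 0.15, a call that was lost without either untreated or either indisulam library.

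SGK1, a kinase induced by steroids and by cell shrinkage, moved in opposite directions with the 2 compounds. It had 25.8 and 25.5 CPM in untreated cells, 30.4 and 30.8 with indisulam, 19.4 and 20.1 with SPHINX31, and 24.9 and 25.2 with the combination. The indisulam libraries lay above and the SPHINX31 libraries below all others. The log2 fold change was 0.25 with indisulam and -0.38 with SPHINX31, both passing in edgeR with every library left out in turn, and -0.04 with the combination (adjusted p = 0.643 in edgeR's test).

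Of the 12 further anion channel genes tested, 6 fell and 0 rose with indisulam in edgeR's test, where 43.7% of all genes passed and 23.5% were lower, and the median log2 fold change was -0.17 for the 12 beside -0.004 for all genes. The call of LRRC8D (-0.18) held in only 2 of the 8 fits with a library left out. TTYH2, of the tweety family, had 4.53 and 3.94 CPM in untreated cells, 1.80 and 1.51 with indisulam, 4.28 and 4.29 with SPHINX31, and 1.47 and 1.45 with the combination, and its log2 fold change with indisulam was -1.35. The calcium-activated chloride channel ANO1 fell by 0.65 on the log2 scale, and CFTR, the cAMP-gated chloride channel, fell by 0.29. Both groups with indisulam lay below the untreated and SPHINX31 libraries for TTYH2, and CFTR showed the same order.

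Of the partners of LRRC8A in the channel, LRRC8D, which lets the channel pass osmolytes such as taurine, had 44.2 and 47.6 CPM in untreated cells, 39.6 and 41.7 with indisulam, 54.9 and 55.0 with SPHINX31, and 39.7 and 44.8 with the combination. It was highest with SPHINX31, with a log2 fold change of 0.26 (adjusted p = 0.0271 in edgeR's test) that was lost without either untreated or either SPHINX31 library. LRRC8E fell by 0.32 with indisulam, a call lost without the untreated replicate 2, and 74.3% of its exon bases overlap an antisense lncRNA, which cannot be separated here because the strand setting of the counting is not given. Per transcript length LRRC8A made up 41.2% and 38.9% of the 5 LRRC8 genes in untreated cells, 43.6% and 46.2% with indisulam, 38.9% and 36.8% with SPHINX31, and 46.9% and 45.5% with the combination, which placed both groups with indisulam above the other groups.

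Among the osmolyte genes, the largest difference with indisulam was in SLC6A6, the taurine transporter. It had 246 and 241 CPM in untreated cells, 113 and 106 with indisulam, 331 and 327 with SPHINX31, and 156 and 141 with the combination. No groups overlapped. The log2 fold change was -1.15 with indisulam (SE 0.0564, adjusted p = 8.15e-09) and 0.43 with SPHINX31 (SE 0.0551, adjusted p = 3.78e-04), by edgeR's quasi-likelihood test, and it was 0.44 between the combination and indisulam alone. These 3 calls held with every library left out in turn. The interaction was 0.00 (95% interval -0.17 to 0.17). That of SLC12A2 was -0.41, but it holds the combination values that chose SLC12A2, and whether the 2 differ was not tested.

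AQP3, an aquaporin that also passes glycerol, had 534 and 483 CPM in untreated cells, 421 and 453 with indisulam, 740 and 623 with SPHINX31, and 571 and 572 with the combination. The SPHINX31 libraries lay above all others, with a log2 fold change of 0.42 (adjusted p = 0.00333 in edgeR's test) that was lost without the untreated replicate 2. SLC5A3, the myo-inositol transporter, and NFAT5, the transcription factor of hypertonic stress, fell with indisulam by 0.43 and 0.32 on the log2 scale, and both calls were lost without the untreated replicate 2, that of NFAT5 also without the indisulam replicate 2 or either combination library.

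Among other ion transport genes, SLC4A7, a sodium bicarbonate cotransporter, had 88.0 and 94.9 CPM in untreated cells, 54.7 and 50.1 with indisulam, 90.9 and 100 with SPHINX31, and 51.8 and 51.3 with the combination. The 4 libraries with indisulam all lay below the other 4, and the log2 fold change with indisulam was -0.80. The potassium channel gene KCNK5 fell by 0.40 with SPHINX31, a call lost without the untreated replicate 1 or either SPHINX31 library.

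**Figure D4:**
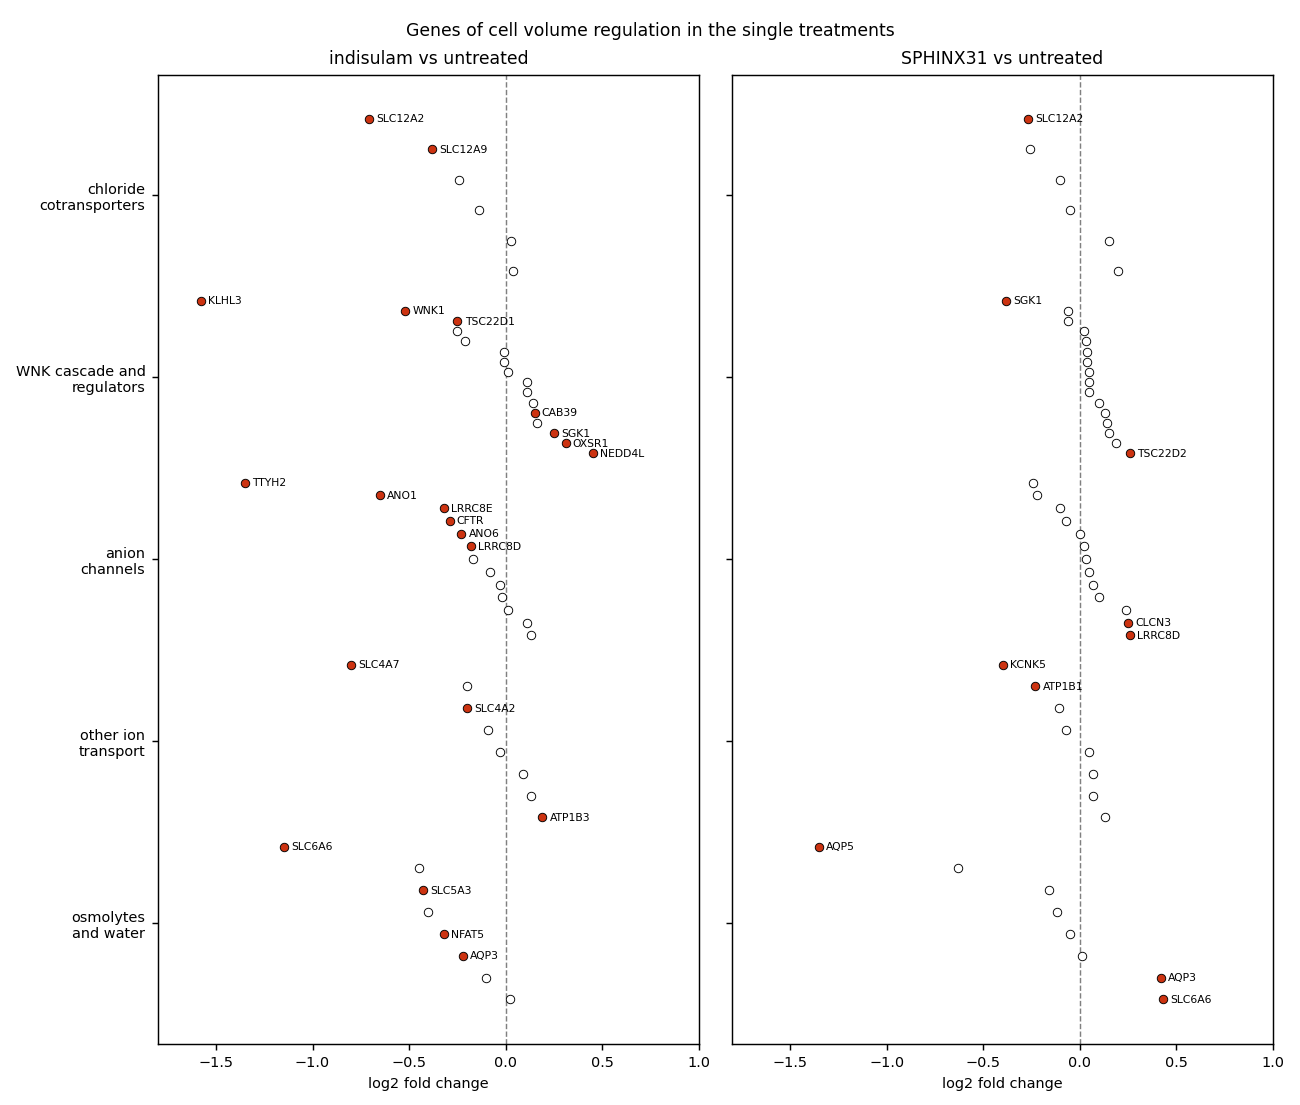
Log2 fold change (x axes) of the tested genes of 5 lists, the members of the set included, with indisulam and with SPHINX31 against untreated cells, with filled red points and names for an adjusted p under 0.05 and open points for the rest. With indisulam SLC6A6, KLHL3 and TTYH2 lie beyond -1, and SLC6A6 and AQP3 stand right of 0 with SPHINX31.

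With SPHINX31 9 of the 44 listed genes passed (20.5%, against 8.61% of all genes), 5 higher and 4 lower, but the count was 3 without the untreated replicate 1, 4 without the untreated replicate 2 and 5 without the SPHINX31 replicate 1. Only SLC6A6 and SGK1 passed with every library left out. With the combination 19 of the 44 passed against untreated cells, 4 higher and 15 lower (43.2%, against 50.0% of all genes). Of all genes 23.8% were higher and 26.3% lower. Fewer of the 44 passed without the untreated replicate 2. Against indisulam alone 3 passed (6.82%, against 7.50%), SLC6A6 and AQP3 higher and SGK1 lower, and this count was 6 without the indisulam replicate 2 and 1 without the combination replicate 2. Against SPHINX31 alone 22 passed (50%, against 49.9%), 6 higher and 16 lower, where 23.4% of all genes were higher and 26.5% lower. For the interaction 0 passed in edgeR's test, with 2 at an unadjusted p under 0.05, and 0 in DESeq2.

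The 5 genes with the pattern nearest to SLC12A2 were chosen among 9905 genes whose log2 CPM averaged 3 or more, by the smallest root mean square difference over the 8 libraries in log2 CPM relative to untreated cells. GALNT7 was nearest (difference 0.070), with group means of 166 CPM in untreated cells, 94 with indisulam, 142 with SPHINX31 and 65.6 with the combination. FANCI (0.097), ELOVL2 (0.101), ECT2 (0.108) and CCDC18 (0.121) followed. GALNT7 encodes a glycosyltransferase, FANCI a protein of DNA crosslink repair, ELOVL2 a fatty acid elongase and ECT2 an exchange factor of cytokinesis. Each of the 5 had its order of group means as SLC12A2 had, untreated above SPHINX31 above indisulam above combination, which their choice fixed.

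**Figure D5:**
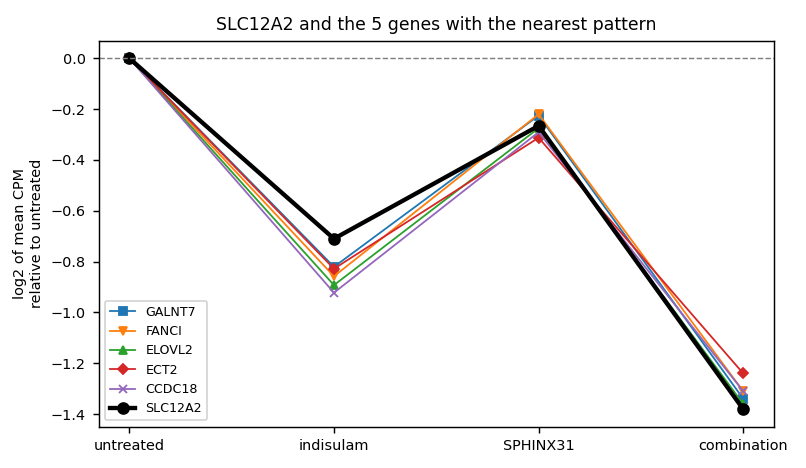
Log2 of the mean CPM relative to untreated cells (y axis) in the 4 groups (x axis) for SLC12A2 in black and the 5 genes of nearest pattern. SLC12A2 lies above the other 5 with indisulam and ends lowest with the combination.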

How the data were processed

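Gene counts of 8 libraries of polyadenylated RNA (stranded preparation, paired-end reads, technical duplicates of 4 groups) were analysed. The authors deposited raw counts per Ensembl gene and the reads not assigned to one, which were left out (83.0% to 86.0% of the recorded reads were on genes). The submitters' processing notes name HISAT2 2.2.1, HTSeq and GRCh38, and the strand setting and annotation of the counting are not given in the sources used here. Without it, reads from a gene and an antisense partner cannot be told apart.

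Names, positions and lengths came from GENCODE 44, and promoters from the RefSeq table on GRCh38.p14, in which 7 of 7 genes matched. Genes were filtered with filterByExpr, scaled with TMM (factors 0.978 to 1.024) and compared with edgeR 4.0.16 (R 4.3.3, limma 3.58.1), by quasi-likelihood on the 8 libraries in 1 fit (4 residual degrees of freedom), with Benjamini-Hochberg adjustment over 18661 genes, threshold 0.05. The interaction is the combination minus indisulam minus SPHINX31 plus untreated, on the log2 scale. The root of the common dispersion was 0.0491. The fit was also run on simulated counts of independent libraries with a fixed dispersion, to check its fold change estimates. That run does not test the calls reported here. DESeq2 1.42.0, RLE size factors, total counts alone, no filter on low counts, at least 10 counts in every library, only the groups compared, a replicate block and leaving out each library were the alternatives. Tables and figures were made with Python 3.11.15, pandas 2.3.3, numpy 2.4.6 and matplotlib 3.10.9.

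The genes and lists were chosen with earlier results of these data known. The genes named were the 7 of the set, any tested gene of the 5 lists, and the 5 genes nearest to SLC12A2 in pattern. The lists as first written held 2 further genes, which are not reported here and are in none of the list counts. PTPRC, CD3E, PECAM1, CDH5, COL1A1, COL1A2 and DCN served as markers of other cell types, and KRT8, KRT18, KRT19, CDH1 and EPCAM as epithelial markers.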

Additional observations from a re-analysis of the deposited data

How the results depend on the processing

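The genes called with indisulam and with the combination against untreated cells stayed within 1.5 times of their number under every alternative run, except that the listed genes called with the combination were 19, and 12 to 21 with a library left out (12 without the untreated replicate 2). Of the 7 genes, those called with SPHINX31 were 1, and 2 with total counts alone, 2 with the crossed block described here, and 0 to 1 with a library left out. Against SPHINX31, the combination gave 2 calls among the 6 genes other than SLC12A2, with 1 under the replicate block and 4 under the crossed block. Over all 18661 genes these 3 fits gave 9314, 9074 and 10005 calls. The listed genes called with SPHINX31 were 9, and 3 to 9 with a library left out. Those called between the combination and indisulam were 3, with 6 without the filter on low counts, 8 under the crossed block and 1 to 6 with a library left out.

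Among the 7 genes, the directions that turned were of values that did not pass. SLC12A7 in the combination against untreated cells was 0.028 with total counts alone. SLC12A4 between the combination and indisulam was -0.005 with RLE size factors, -0.005 in DESeq2 and -0.001 without the filter. STK39 between the combination and SPHINX31 was 0.005 with RLE size factors, 0.016 with total counts, 0.005 in DESeq2, 0.001 when every library needed 10 counts and 0.006 with only the groups compared, and its interaction was 0.002 with total counts. With a library left out, SLC12A4 ranged from -0.007 to 0.073 with indisulam, -0.105 to 0.001 with SPHINX31, -0.069 to 0.132 with the combination, -0.101 to 0.102 between the combination and indisulam, -0.018 to 0.180 between the combination and SPHINX31, and -0.051 to 0.151 for the interaction. STK39 ranged from -0.019 to 0.033 with indisulam, -0.004 to 0.053 between the combination and indisulam, -0.029 to 0.034 between the combination and SPHINX31, and -0.035 to 0.025 for the interaction. SLC12A7 ranged from -0.096 to 0.049 with the combination and -0.126 to 0.084 for the interaction. WNK1 with SPHINX31 ranged from -0.029 to 0.129. LRRC8A ranged from -0.013 to 0.067 with SPHINX31, -0.020 to 0.164 between the combination and indisulam, and -0.051 to 0.133 for the interaction. The cause of these turns was not tested.

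Over all genes, 1606 passed with SPHINX31, 482 to 1810 with a library left out and 2630 under the crossed block. Between the combination and indisulam 1399 passed, 440 to 1612 with a library left out and 2252 under the crossed block. The interaction gave 0, with 31 in DESeq2, 94 without the filter, 12 under the crossed block and 0 to 1 with a library left out.

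Replicate numbers did not pair the libraries in the same way in all groups. Over 9946 genes, same-numbered libraries deviated apart between untreated and indisulam (correlation -0.569) and between indisulam and SPHINX31 (-0.494). They deviated together between untreated and SPHINX31 (0.455). Whether a factor was shared by libraries of different groups was not tested, and the main fit has no term for one. With the replicate number as a block, 3 of the 7 genes were called with indisulam and 1 of the 7 with SPHINX31. Of the 6 genes other than SLC12A2, the combination gave 3 calls against untreated cells, 0 against indisulam and 1 against SPHINX31. In the same 5 comparisons, the calls among the 44 listed genes were 18, 8, 18, 3 and 21. Over all 18661 genes they were 7851, 1330, 9077, 1169 and 9074. The crossed block, with the indisulam numbers exchanged, was chosen after seeing the data. With a library left out, 1 group holds a single library, which is assumed to vary like the other groups. The lowest count of the 7 genes was 1057 per library (SLC12A4).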

Other observations

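Among the listed genes, CLCN3, an endosomal chloride proton exchanger, had 124 and 127 CPM in untreated cells and 145 and 153 with SPHINX31, a log2 fold change of 0.25 (adjusted p = 0.00873, edgeR's quasi-likelihood test) that was lost without either untreated library. ATP1B1, a subunit of the sodium pump, had 507 and 481 CPM in untreated cells and 422 and 421 with SPHINX31, a log2 fold change of -0.23 that was lost without the untreated replicate 1. TSC22D2 had 19.6 and 21.2 CPM in untreated cells and 24.6 and 24.1 with SPHINX31, a log2 fold change of 0.26 that was lost without either library of either group. The SPHINX31 libraries lay above the untreated ones for CLCN3 and TSC22D2 and below them for ATP1B1. AQP5 passed with SPHINX31 at only 0.137 to 0.453 CPM, and that call was lost without any 1 of 6 libraries.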
